A study of Homo sapiens with 2 samples.

Results

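The 403 regions described here are JUNB peaks that were listed after etoposide only and whose summits lay within 1 kb of a boundary, the start or the end, of a protein-coding gene. They were taken from 25739 etoposide peaks on chromosomes 1 to 22 and X in 2 steps. First, 9063 peaks shared no base with any of the 32550 untreated peaks, which is 35.2% of the etoposide list. Of those, 403 had a summit within 1 kb of a gene boundary, 4.45%, where 5.11% of shared etoposide peaks and 13.8% of untreated-only peaks did. The regions were chosen by measured values, the peak calls of both libraries and the summit positions, so the absence of an untreated peak and the closeness to a gene describe how the regions were chosen and are not findings.

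Peaks came from IMR-90, human fetal lung fibroblasts, profiled as 1 untreated culture and 1 ETO-treated culture, where ETO is etoposide. Dose, length of treatment and days in culture were not given in the sources used here. Both libraries used the same antibody to JUNB. With a single library per condition there is no replicate spread, and peak lists do not show signal under the listing threshold.

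JUNB is a basic leucine zipper protein that pairs with FOS proteins to form AP-1, which binds the palindrome TGANTCA, most often with G or C in the middle. In fibroblasts AP-1 responds to serum, stress and DNA damage, and much of its binding lies in enhancers away from genes, with a smaller part at promoters. Etoposide traps topoisomerase II on cut DNA, and the resulting breaks can drive fibroblasts into senescence, a lasting arrest with secretion of cytokines, growth factors and proteases known as the senescence-associated secretory phenotype (SASP).

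Promoter sequence was available for the gene start members, and 50 of them had their summit within the RefSeq promoter window, which runs from 250 bases before to 50 after the start. The first set below gives the strongest of these with a TGANTCA match, since they are where an AP-1 site could be read directly. Each sequence is the 250 bases before the gene start on GRCh38.p14, written 5′ to 3′ on the strand of the gene, with the matches in capitals.
C1GALT1C1L promoter: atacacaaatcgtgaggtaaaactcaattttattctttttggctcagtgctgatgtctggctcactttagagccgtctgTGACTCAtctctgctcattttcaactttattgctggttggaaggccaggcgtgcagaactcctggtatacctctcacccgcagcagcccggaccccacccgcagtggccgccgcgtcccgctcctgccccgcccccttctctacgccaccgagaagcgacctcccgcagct
MMP10 promoter: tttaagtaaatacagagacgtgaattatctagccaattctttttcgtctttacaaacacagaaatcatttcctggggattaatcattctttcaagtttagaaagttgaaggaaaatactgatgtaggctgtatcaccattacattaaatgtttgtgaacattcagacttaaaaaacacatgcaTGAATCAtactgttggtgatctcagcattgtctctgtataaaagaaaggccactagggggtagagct
LOC124903496 promoter: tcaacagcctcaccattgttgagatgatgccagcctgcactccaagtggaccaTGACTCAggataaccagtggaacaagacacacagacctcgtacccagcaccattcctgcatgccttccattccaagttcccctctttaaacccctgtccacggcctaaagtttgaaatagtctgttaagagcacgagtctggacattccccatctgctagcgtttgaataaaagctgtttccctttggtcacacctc
IL11 promoter: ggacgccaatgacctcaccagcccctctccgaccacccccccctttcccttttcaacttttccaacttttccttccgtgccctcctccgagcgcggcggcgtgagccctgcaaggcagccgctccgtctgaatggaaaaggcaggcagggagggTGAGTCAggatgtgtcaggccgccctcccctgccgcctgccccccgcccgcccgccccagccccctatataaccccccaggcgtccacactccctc
HNMT promoter: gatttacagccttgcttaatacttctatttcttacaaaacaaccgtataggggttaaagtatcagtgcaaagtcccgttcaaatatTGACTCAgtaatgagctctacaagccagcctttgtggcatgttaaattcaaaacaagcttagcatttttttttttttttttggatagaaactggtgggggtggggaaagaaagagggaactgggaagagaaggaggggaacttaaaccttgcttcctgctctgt

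These stretches lie on the minus strand at chr2:43676430-43676679 (C1GALT1C1L), chr11:102780629-102780878 (MMP10), chr15:55530929-55531178 (LOC124903496) and chr19:55370464-55370713 (IL11), and on the plus strand at chr2:137964223-137964472 (HNMT). In IL11 the match reads TGAGTCA and begins 96 bases before the start, downstream of the summit at 215 bases before it. In MMP10 it reads TGAATCA, 67 bases before the start, with the summit 222 bases before. C1GALT1C1L has TGACTCA 171 bases before the start and its summit at 240. HNMT has TGACTCA 164 bases before, with the summit at 87. The LOC124903496 window also holds a match after the start, which is not printed. In every one of the 5 the match was 72 to 158 bp from the summit and not under it. This was not particular to the members. The median distance was 119.5 bp in 6 start members, with 0 within 50 bp. It was 112.5 bp in shared peaks at gene starts (28 measured, 1 within 50 bp). In untreated-only peaks at gene starts it was 133 bp (27 measured, 2 within 50 bp).

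For comparison, the second set shows promoters of 2 stronger members that lack TGANTCA, with the 7 bases centred on the summit in capitals.
OSBPL7 promoter: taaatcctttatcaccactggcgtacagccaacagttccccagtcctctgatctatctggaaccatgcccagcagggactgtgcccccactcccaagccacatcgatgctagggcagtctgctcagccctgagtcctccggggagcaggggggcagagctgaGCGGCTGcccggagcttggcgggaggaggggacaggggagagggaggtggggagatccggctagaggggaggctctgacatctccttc
GDF9 promoter: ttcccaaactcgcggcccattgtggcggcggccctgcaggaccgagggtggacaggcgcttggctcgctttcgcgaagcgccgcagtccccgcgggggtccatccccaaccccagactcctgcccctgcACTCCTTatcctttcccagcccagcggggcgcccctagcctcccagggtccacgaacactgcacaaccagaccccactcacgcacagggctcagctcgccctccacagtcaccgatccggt

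They lie on the minus strand at chr17:47821795-47822044 (OSBPL7) and chr5:132866652-132866901 (GDF9). The summits were 85 and 118 bases before the starts. OSBPL7 ranked 12 and GDF9 ranked 15 among the 403 by -log10 q, above every member whose summit and a match lay in the window, the first of which, C1GALT1C1L, ranked 21.

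Matches to TGANTCA were present in the promoter windows of 19 of 234 genes with a start member, 8.12% (95% Wilson interval 5.26% to 12.3%). The motif was read on both strands, and a match on one strand is also a match on the other. It was present in 5.76% of the 15812 promoters of the table. In shared start peaks of the etoposide list the share was 12.8% (10.2% to 15.9%, 68 of 531), and in start peaks of the untreated list alone it was 5.83% (4.78% to 7.10%, 92 of 1578). The interval of the members took in the untreated-only share, and it overlapped the interval of the shared peaks but ended below their share. Among the 50 with the summit inside the window, 6 had a match (12%, 5.62% to 23.8%).

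The letters TGACGTCA, the cyclic AMP response element that ATF and CREB proteins and some AP-1 pairs bind, were present in 11 of the 234 windows, 4.70% (2.64% to 8.22%), where 2.59% of all promoters had them. Untreated-only start peaks had a similar share, 4.88%, and shared ones had 2.45%. The GC-box core CCGCCC was present in 67.9% of member windows (61.7% to 73.6%) against 58.5% of all, and CCAAT in 38.9% (32.9% to 45.3%) against 36.3%. In untreated-only and shared start peaks CCGCCC was present in 68.5% and 64.0%, and CCAAT in 44.9% and 42.9%, so the higher GC-box share was common to all 3 classes. The median GC content was 63.0% in member windows and 62.7% in all, and the ratio of observed to expected CpG was 0.806 and 0.763. Shared start peaks had 62.7% and 0.808, and untreated-only start peaks had 63.7% and 0.846, so the higher CpG ratio was also common to all 3 classes. Base composition moves with all of these letters, and its part in the shares was not tested.

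Most of the 403 peaks were weak. A peak's strength is given here as the number of fragments stacked at its summit, worked out from the authors' fold and p values. The median was 9 fragments (quartiles 8 and 11, lowest 5 and highest 55) on a median local background of 0.605 fragments. Etoposide-only peaks elsewhere had a median of 10 (8 and 13), and shared peaks at boundaries had 12 in the same list (9 and 16). At least 15 fragments were stacked in 42 members, 10.4%, and in 30.8% of shared boundary peaks. The untreated list had the same order at boundaries, with a median of 12 fragments in untreated-only peaks and 17 in shared ones. Lower strength than shared peaks was thus not particular to the members, and the part of the choosing rule in it was not tested. When the whole etoposide list was divided by -log10 q into 10 equal parts, the weakest part held 78 of the members (19.4%) and the strongest part held 2. The 10000 strongest etoposide peaks included 57 members and the 1000 strongest included 1.

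Members were also narrow and on low background. They had a median width of 208 bp, close to the smallest width in the list, 189 bp. Etoposide-only peaks elsewhere were about as narrow, at 211 bp, and shared boundary peaks had 236 bp. In the untreated list, too, untreated-only boundary peaks were narrower than shared ones, with medians of 239.5 bp and 355 bp. No member had a local background over 3 fragments, against 89 of 8660 etoposide-only peaks elsewhere (1.03%). A count of 0 in 403 allows a share of up to 0.944% (upper Wilson bound), and the interval of the peaks elsewhere, 0.836% to 1.26%, overlaps it.

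**Figure D1:**
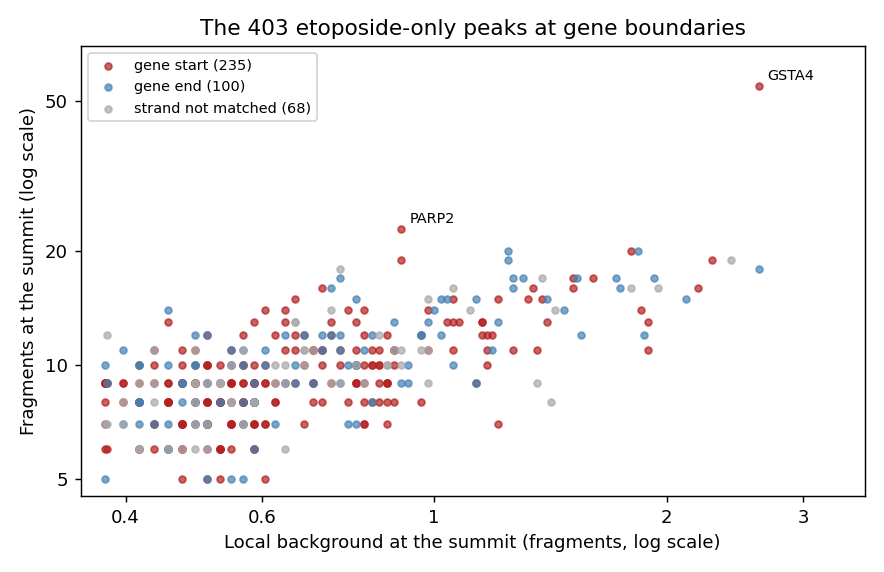
Fragments at the summit against local background for each of the 403 peaks (both axes logarithmic), coloured by nearest boundary: 235 at a gene start, 100 at a gene end and 68 at genes whose strand was not matched. Most points lie between 5 and 20 fragments, and the peak beside GSTA4 stands alone at 55.

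**Figure D2:**
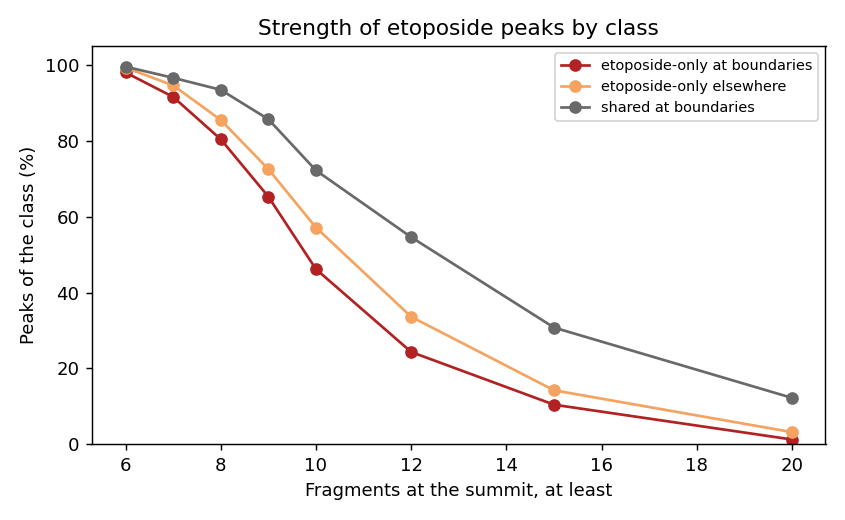
Share of peaks (vertical axis, percent) with at least the number of fragments on the horizontal axis, for 3 classes of the etoposide list. At 10 fragments the shares were 46.2% for the members, 57.1% for etoposide-only peaks elsewhere and 72.2% for shared boundary peaks.

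The 2 strongest members lay over genes of small noncoding RNAs that sit head to head with or beside a protein-coding gene. The first, on chromosome 6 at 52995601 to 52995916, had 55 fragments on a background of 2.63. Its summit was 484 bp outside the start of GSTA4, a glutathione transferase that clears lipid peroxidation products, and inside RN7SK (52995620 to 52995951), the RNA that holds the elongation factor P-TEFb inactive. The second, on chromosome 14 at 20343080 to 20343356, had 23 fragments on 0.907. It was 446 bp outside the start of PARP2, a poly(ADP-ribose) polymerase that responds to DNA breaks, and inside RPPH1 (20343071 to 20343411), the RNA of ribonuclease P, which trims transfer RNA precursors. Both RNAs are made by RNA polymerase III from promoters that lie upstream of the transcribed part. The nearest untreated peaks were 45676 bp and 111849 bp away.

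A small noncoding RNA gene (transfer, nuclear, nucleolar, ribosomal, Y, vault, RNase P or MRP RNA and the like) lay within 250 bp of the summit in 4 members, 0.993% (0.387% to 2.52%). The share was 0.235% in shared boundary peaks (2 of 852), 0.409% in untreated-only boundary peaks (9 of 2202) and 0.185% in etoposide-only peaks elsewhere (16 of 8660). The intervals of the members and of both boundary classes overlap, while that of the peaks elsewhere (0.114% to 0.300%) lies below. The other members of this kind were at WDR74, a ribosome assembly factor, over the U2 small nuclear RNA gene RNU2-2 with 10 fragments, and at ACTR1B, an actin-related dynactin subunit, beside the small nuclear RNA gene LOC124900516 with 15. RN7SK and U2 RNA have many copies in the genome, and the peak lists do not show how reads with several matches were placed. This grouping was made after the values had been seen.

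The rest of the 15 strongest had 12 to 20 fragments. UAP1L1 (chromosome 9, 137083577 to 137083849) had 18 fragments with its summit 816 bp inside the gene. An untreated peak only 86 bp away (137083290 to 137083491) also had 18 fragments. MPP7, a scaffold protein of cell junctions, had 19 fragments 814 bp inside its start on chromosome 10 at 28334216 to 28334453. PRXL2C had 17 fragments, 901 bp beyond its end, and DDX59, an RNA helicase, had 20 fragments 500 bp beyond its end. MAP4K2, a kinase upstream of the JNK pathway that phosphorylates JUN proteins, had 14 fragments 48 bp inside its end (chromosome 11, 64784871 to 64785079). CSF1R, the receptor for macrophage colony-stimulating factor, had 16 fragments 709 bp inside its start (chromosome 5, 150112552 to 150112761). SPRTN, the protease that removes proteins crosslinked to DNA, had 16 fragments 120 bp inside its end (chromosome 1, 231354738 to 231355135). NCAPD2, a condensin subunit, had 19 fragments 589 bp beyond its end, in the divergent transcript GAPDH-DT.

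The remaining 5 of the 15 lay close to a boundary, which was a start in all but TRIM28, whose strand was not matched. DDX46, a splicing helicase, had 15 fragments 261 bp before the start, and OSBPL7, an oxysterol-binding protein relative, had 13 at 85 bp before it. PGAP3, which remodels GPI anchors, had 14 fragments 42 bp inside its start, and a boundary of ERBB2 was within 1 kb of the same summit. TRIM28, the corepressor recruited by KRAB zinc finger proteins, had 12 fragments 142 bp outside the gene. GDF9, an oocyte growth factor, had 14 fragments 118 bp before its start, and the summit was also within 1 kb of a boundary of UQCRQ, a subunit of respiratory complex III. Of these 15, the nearest boundary was a start in 8 and an end in 5, and 13 had no untreated peak within 10 kb of the peak.

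At the other end of the list, LIPM and MEIS2 had 5 fragments each and LIPH had 7, with a -log10 q of 2.137, 2.0046 and 2.0177. The lowest value listed was 2.0046, and 117 of the 403 had a -log10 q under 5.

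Which side of the gene a peak fell on was not part of the rule. None of the 12 members on chromosome 8 had a matched strand. In all, the strand was matched for 335 of the 403 members. Of these, 235 had a gene start as the nearest boundary, 70.1% (65.0% to 74.8%), and 100 had a gene end. The start share was 87.9% in untreated-only boundary peaks (86.3% to 89.3%, 1642 of 1868) and 76.8% in shared boundary peaks of the etoposide list (73.6% to 79.8%, 543 of 707). The interval of the members lies below that of the untreated-only peaks and meets that of the shared peaks. No test between the classes was run.

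In numbers, etoposide-only peaks were 0.143 times as many as untreated-only peaks at gene starts (235 against 1642, 95% interval 0.125 to 0.164). At gene ends the ratio was 0.442 (100 against 226, 0.3499 to 0.5596), and away from boundaries it was 0.630 (8660 against 13738, 0.614 to 0.648). The ratio was lowest at starts, with separate intervals for the 3 places. These intervals cover counting alone and say nothing of how 2 cultures of the same condition would differ.

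Summits around every boundary were then counted in steps of 250 bp out to 5 kb. At starts, etoposide-only summits numbered 56.5 per step within 250 bp and 13.3 per step between 1 and 5 kb, a ratio of 4.23. The ratio was 6.29 for shared peaks and 20.7 for untreated-only peaks. At gene ends, etoposide-only summits numbered 22 per step within 250 bp against 12.2 further out, a ratio of 1.80 from 44 summits, where shared peaks gave 0.955 and untreated-only peaks 1.12. Relative to its own flanks, the etoposide-only class was thus the least dense of the 3 at starts and the densest at ends.

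**Figure D3:**
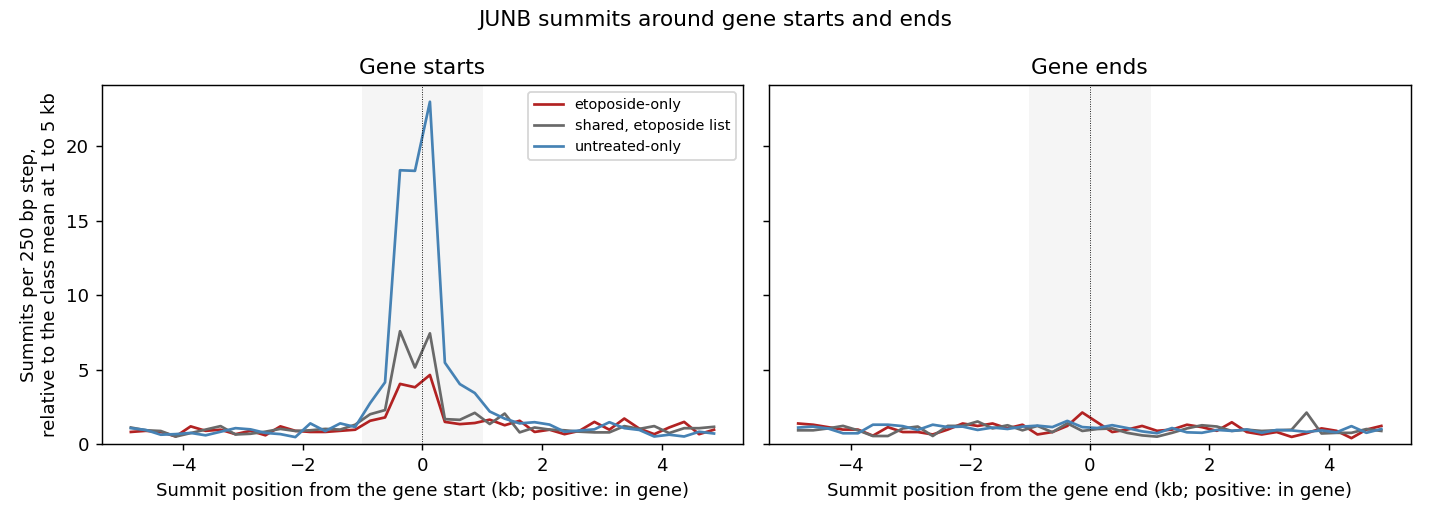
Summits per 250 bp step around gene starts (left) and ends (right), divided by the mean of the same class at 1 to 5 kb, with distance in kb on the horizontal axis and the 1 kb window shaded. At starts the untreated-only line rises over 20 times its flank, and the etoposide-only line stays under 5.

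Within the 1 kb window, 103 of 235 start members had their summit within 250 bp of the start, 43.8% (37.6% to 50.2%). Untreated-only start peaks did so in 56.2% (53.7% to 58.5%) and shared ones in 45.3% (41.2% to 49.5%). Of the 100 end members, 41 were within 250 bp of the end (41.0%, 31.9% to 50.8%), against 27.4% (21.2% to 34.7%) of shared and 30.5% (24.9% to 36.8%) of untreated-only end peaks, with overlapping intervals. Start members fell inside the gene in 48.1% (41.8% to 54.5%) and end members in 52% (42.3% to 61.5%), and both intervals include equal shares on either side. The median was 9 fragments at starts and 10 at ends.

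At the edge of the rule, the outermost member was at CTHRC1, a secreted collagen triple helix repeat protein, with the summit 1000 bp from the boundary and 9 fragments. The next were at IFI16, a sensor of foreign and damaged DNA, at 997 bp from the start with 15 fragments, and at TWF2, an actin-binding protein, at 994 bp with 12. Just outside were peaks at NBPF15 (1001 bp, 10 fragments) and NDC1 (1004 bp, 11 fragments). At the edge of the other criterion, the member at RAB5B was 21 bp from an untreated peak, and the shared boundary peak with the least overlap, at G3BP2, had 10 bp in common with its counterpart and 9 fragments.

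Many members were not in empty territory. An untreated peak lay within 2 kb of 99 members, 24.6% (20.6% to 29.0%), and of 19.9% (19.1% to 20.8%) of the etoposide-only peaks elsewhere. Most of these were much closer, with 77 members within 500 bp of an untreated peak. In 82 of the 99 the untreated neighbour was itself without an etoposide counterpart, so the lists held 2 different peaks side by side. Over all 99 members, the untreated neighbours had a median of 14 fragments and the members 10, and the untreated peak was the higher in 78 of the 99. These numbers are not scaled for depth, and the lowest local background was also higher in the untreated list, 0.482 fragments against 0.377. The part of depth in this difference was not tested.

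Several genes show such pairs. At F5, coagulation factor V, the etoposide peak (chromosome 1, 169511925 to 169512120) had 17 fragments, and 133 bp away an untreated peak (169511433 to 169511792) had 26. At ZYX, the focal adhesion protein zyxin, the member had 16 fragments on chromosome 7 at 143380781 to 143381233, 206 bp before the start, and the untreated peak 173 bp away also had 16. At MED1, a Mediator subunit, the counts were 15 and, 148 bp away, 18. CNKSR3, a scaffold of MAP kinase signalling, had a member at its end (12 fragments) 132 bp from an untreated peak with 14, and another at its start (7 fragments) 153 bp from an untreated peak with 12. The examples other than ZYX and CNKSR3 were chosen after their values were seen.

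**Figure D4:**
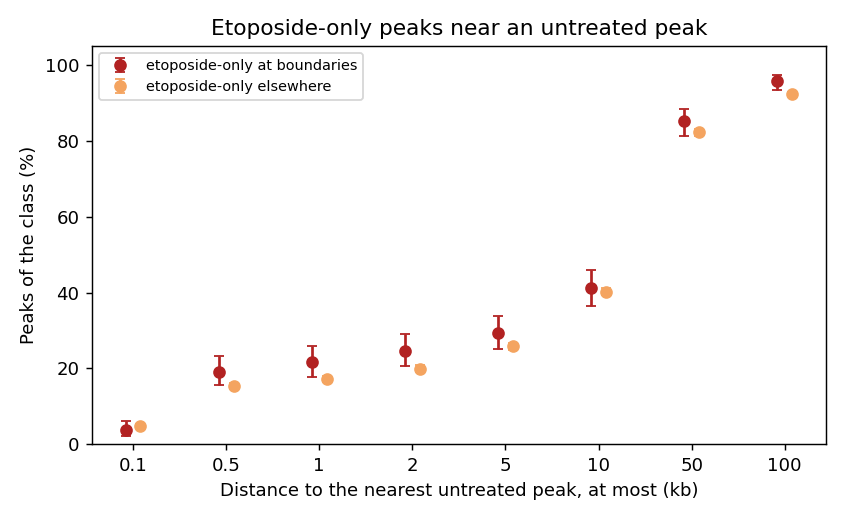
Share of etoposide-only peaks (percent, with 95% Wilson intervals) whose nearest untreated peak is at most the distance on the horizontal axis in kb, for peaks at gene boundaries and elsewhere. By 0.5 kb 19.1% of boundary peaks had an untreated neighbour, and by 50 kb 85.1% did.

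The same was seen by boundary. Of the 235 start members, 53 had an untreated summit within 1 kb of the same gene start, 22.6% (17.7% to 28.3%), where 15.6% of all 15812 gene starts did. Of the 100 end members, 15 had one at the same end, 15% (9.31% to 23.3%), where 2.76% of all gene ends did. By gene, 310 of the 450 genes with a member at a boundary had an untreated peak in the gene or within 10 kb of it, 68.9% (64.5% to 73.0%), against 49.6% of all protein-coding genes. Member genes were longer, with a median of 32631 bp against 24170.5 bp. All genes weighted to the lengths of the member genes gave 52.7%. Among the 7765 genes with any etoposide peak in the same window the share was higher than in member genes, 88.1% (87.4% to 88.8%), and those genes include the ones whose etoposide peak is shared and so has an untreated counterpart by definition. Conversely, 122 of the 403 members were at a nearest gene with no untreated peak in that window, and 5 of the 15 strongest were among them.

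The 450 genes made up 2.25% of 19974 protein-coding genes, and 18 gene lists were read against that share. Their counts are small and no list was tested. Of 59 SASP genes 3 had a member (5.08%): IL11, CCL2 and MMP10. Interleukin-11 is a cytokine of the IL-6 family that drives fibroblast activation. It had a pair of members, the only SASP gene with more than 1, on chromosome 19 at 55370605 to 55370793 (11 fragments, summit 215 bp before the start) and at 55370263 to 55370451 (8 fragments, 144 bp inside). No untreated peak lay within 10 kb of IL11. MMP10, the protease stromelysin-2, had 13 fragments on chromosome 11 at 102780717 to 102780943, 222 bp before its start, and 19862 bp from the nearest untreated peak, which had 48. CCL2, a chemokine that attracts monocytes, had 16 fragments on chromosome 17 at 34254438 to 34254692, 726 bp outside the gene, on a background of 1.95, and an untreated peak with 25 fragments lay 1400 bp away.

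Damage response genes were counted in a pair of lists. Among 43 genes of DNA break signalling and repair there were 2 (4.65%), PARP2 and FANCD2. FANCD2, the central protein of interstrand crosslink repair, had 7 fragments 668 bp inside its end, and an untreated peak 180 bp away had 14. Among 30 p53 targets, only SESN2, a stress-induced inhibitor of mTORC1, had a member (3.33%), on chromosome 1 at 28259034 to 28259453 with 9 fragments, 360 bp before the start. No untreated peak lay within 10 kb of the gene SESN2, while the nearest one was 9925 bp from this member.

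Of 52 replication and mitosis genes 3 had a member (5.77%). CDC25C, the phosphatase that activates CDK1, has a start that overlaps that of FAM53C on the other strand, and the peak there had 9 fragments, 130 bp inside FAM53C. The peak near CDK2 lay 518 bp before the start of RAB5B with 12 fragments, and an untreated peak 21 bp away had 23. MCM4, a subunit of the replicative helicase, had 7 fragments 656 bp inside the gene. Of 20 genes of the TEAD and YAP pathway 2 had a member (10%): LATS2, the kinase that inactivates YAP, with 8 fragments 201 bp before its start, and AMOTL1, a YAP-binding junction protein, with 11 fragments 27 bp inside its end.

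Structural and signalling genes of fibroblasts were at about the background share. Of 45 integrin, laminin and actin genes ZYX alone had a member (2.22%), of 41 collagen and matrix genes COL14A1 alone (2.44%, 7 fragments), and of 29 TGF-beta and activin genes TGIF1 alone (3.45%), a repressor of SMAD-driven transcription with 15 fragments 141 bp inside its end. None of the 23 AP-1 family genes and none of 21 fibroblast regulators had one, and at a share of 2.25% a list of that size would hold less than 1. Cytosolic ribosomal protein genes had 2 of 85 (2.35%, RPL19 and RPL9, 8 fragments each) and replication-dependent histone genes 2 of 69 (2.90%, H4C5 and H4C11, 7 fragments each).

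The other lists were gene families and markers of other cell types. ZNF zinc finger genes had 10 of 517 (1.93%), olfactory receptors 2 of 392 (0.510%) and multicopy families 3 of 341 (0.880%). Neuronal and epithelial marker genes had 0 of 15 and 0 of 13, and immune cell markers had 1 of 14, CSF1R. Peak lists hold no expression, so the labelled cell type was not checked by its markers here.

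Apart from IL11 and CNKSR3, the genes that were the nearest gene of a pair of members were ATG14 and TMEM52B. NDUFB6 also had a boundary within 1 kb of each of a pair of members, but the nearest gene of the stronger was TOPORS. ATG14, a subunit of the lipid kinase that starts autophagy, had peaks on either side of its end on chromosome 14, at 55366523 to 55366735 with 10 fragments and at 55366199 to 55366387 with 8. TMEM52B had peaks with 17 and 9 fragments on chromosome 12, at 10192079 to 10192303 and 10191635 to 10191899. Members were spread over all 23 chromosomes examined, from 0.943 per 100 protein-coding genes on X and 1.12 on chromosome 20 to 3.14 on chromosome 14.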

How the data were processed

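JUNB CUT&RUN was analysed in 2 IMR-90 libraries, 1 untreated and 1 etoposide-treated, grouped by the treatment label. The authors deposited 1 peak list per library in narrowPeak layout. Bowtie2, MACS2 and the builds hg38 and mm10 are named in the submitters' processing notes, without settings. Each list belongs to 1 library, per the labels, and no control library was used here. The deposited columns were fold over local background (a ratio), -log10 p, -log10 q, a score that is 10 times -log10 q, and the summit. The lowest -log10 q was 2.03 in the untreated and 2.0046 in the etoposide list.

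Fragments at the summit (k) and local background (b) were solved from the deposited fold, (k + 1)/(b + 1), and the Poisson -log10 p. A whole k matched within 0.001 for 100% of peaks of both lists, with 2 solutions for 31 etoposide peaks. The solution was tested on simulated data. Depth beyond this is not held by peak lists.

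Gene boundaries came from RefSeq GRCh38.p14, and strand from its promoter table, which matched 79.2% of 19974 protein-coding genes and the nearest genes of 83.1% of the peaks described. All 12 peaks described on chromosome 8 were unmatched, so their start, end and motif shares hold no peak from that chromosome. The first window listed per gene was used. Exons and peak sequences were not used here. Shares carry 95% Wilson intervals, which cover counting error only. No test of the treatment was run, since each condition had 1 library. Python 3.11.15, numpy 2.4.6, pandas 2.3.3 and SciPy 1.17.1 were used.

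The peaks, gene lists and measures were chosen with earlier results of these data known. Genes were named as the 15 strongest peaks by -log10 q, the 12 strongest at listed genes, genes with 2 peaks, the strongest promoter peaks with and without a motif, and the 3 weakest. Others were named after their values were seen. Alternatives changed the -log10 q threshold, the overlap rule and the boundary window.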

Additional observations from a re-analysis of the deposited data

How the results depend on the processing

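Of the alternatives run for the 403 peaks, the overlap rule and the window mattered most. Counting a peak as shared only when at least 50% of both peaks overlapped gave 695 peaks, with 56.3% of them within 2 kb of an untreated peak and 81.8% of their genes with an untreated peak within 10 kb, because partly overlapping pairs enter. Counting an untreated peak within 500 bp as shared left 326 peaks, and those shares became 6.75% and 61.3%. With a -log10 q of at least 5 in both lists there were 314 peaks, 286 of them among the 403, and the gene share was 61.1%. A window of 500 bp gave 266 peaks and one of 3 kb gave 824. With 3 kb the start share was 62.1%, and 20.5% of peaks were within 250 bp of a boundary, since more distant peaks enter. The start share lay between 66.9% and 73.6% under its other alternatives, and under each of these, 3 kb included, it stayed below the 87.9% of untreated-only peaks at the reported setting. The untreated-only share was not recalculated under the alternatives, so whether the difference depends on the settings was not tested. The median stayed at 9 to 10 fragments, and the TGANTCA share at 8.15% to 12% under its alternatives. Of the 15 strongest peaks, 14 or 15 remained under the alternative overlap and threshold rules and 10 with a 500 bp window. No paired analysis was possible because each condition had 1 library and the result comes from no test. No replicate could be left out for the same reason.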
